A study of Mus musculus with 10 samples.

Results

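The genes described here encode the main folding proteins of the endoplasmic reticulum (ER): the chaperones Hspa5 and Hsp90b1, the co-chaperones Dnajb11 and Sdf2l1, the lectin chaperones Calr and Canx, and the disulfide isomerases Pdia3, Pdia4, Pdia6 and P4hb. They were chosen by name for this shared function, with earlier results of these data known, and are 10 genes of 57010 in the table, and all 10 passed the filter on low counts that left 15539 genes for testing. RNA was sequenced in 10 retina libraries, 5 per group, from mice 6 to 8 weeks old, which had received an adeno-associated virus (AAV) vector into the vitreous 14 days earlier. In one group of 5 mice the green fluorescent protein (GFP) vector was AAV2-GFP, built on a capsid in wide use for the inner retina, and in the other group of 5 it was AAV206-GFP, which the study's title places among vectors for the retinal pigment epithelium (RPE). The labels give no strain, sex, dose or promoter, and do not say whether a library holds a single mouse or a pool. A retina given below with a level or a replicate number therefore stands for a library. Every retina had been injected and carried a GFP vector, uninjected retinas were not analysed here, and so a level that was raised by one vector cannot be told apart from a level that was lowered by the other.

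Proteins that are secreted or placed in membranes enter the ER unfolded. There, chaperones of the HSP70 and HSP90 families hold them, lectin chaperones hold those that carry sugar chains, and isomerases of the PDI family make and rearrange their disulfide bonds. When unfolded proteins build up, the unfolded protein response (UPR) raises transcription of many of these genes through the factors ATF6 and XBP1, which act at a promoter motif called the ER stress element. Photoreceptors make rhodopsin and other membrane proteins of the outer segment at a high rate, and the ER folding machinery is well known in the retina for its part in disease caused by misfolded rhodopsin.

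The promoters were examined for this motif, since it is the sequence by which most of these genes are known to be regulated together. All 10 genes matched a RefSeq promoter of build GRCm38.p6, a window of 250 bases upstream of the annotated start and 50 bases after it. The ER stress element was searched on both strands as CCAAT, then 9 bases, then CCACG, and its second form as ATTGG, then 1 base, then CCACG; both forms end in the same 5 bases. Exact matches to the first form were found in Hspa5, Hsp90b1 (2 matches), Calr, Canx and Pdia6, and an exact match to the second form in Dnajb11. Of all 32851 promoters searched, 39 (0.119%) held the first form and 12 (0.0365%) the second. The matches read 5′ to 3′ on the strand of the element, with the half-sites in capitals, as follows.
Hspa5: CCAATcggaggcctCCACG
Hsp90b1, farther from the start: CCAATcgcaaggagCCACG
Hsp90b1, nearer to the start: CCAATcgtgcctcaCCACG
Calr: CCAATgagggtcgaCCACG
Canx: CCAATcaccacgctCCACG
Pdia6: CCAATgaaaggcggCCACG
Dnajb11, second form: ATTGGcCCACG

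With 1 mismatch allowed in the half-sites, 1.5% of all promoters held the first form and 1.16% the second. At this tolerance Pdia3 and Pdia4 held the first form and Sdf2l1 the second, and Hspa5 and Hsp90b1 each held a further match. P4hb held neither, which says only that these letters are not in this window. The matches of the 3 genes with no exact match are shown beside the exact ones.
Pdia3: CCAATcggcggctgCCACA
Pdia4: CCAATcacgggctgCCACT
Sdf2l1, second form: ACTGGtCCACG

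The Hspa5 match lay 65 to 47 bases upstream of the RefSeq start, at chr2:34772025-34772043 on the plus strand, inside the longer gene span of the GENCODE annotation. In Hsp90b1 the matches lay 212 to 194 and 107 to 89 bases upstream, in opposite directions. The Calr match, 162 to 144 bases upstream, ran against the gene, whereas those of Canx (145 to 127) and Pdia6 (98 to 80) ran with it. In Dnajb11 the match lay 7 to 17 bases after the start. The upstream 250 bases of Hspa5, Hsp90b1, Calr and P4hb are printed on the strand of each gene, because these genes include large and small differences between the vectors, described below. They were picked with these differences known. Canx, with an exact match, had a log2 fold change of only -0.25, and Sdf2l1, with no exact match, had one of -1.38. Whether a match goes with the size of the difference was not tested. Half-sites of exact matches are in capitals.
Hspa5, chr2:34771840-34772089, plus strand: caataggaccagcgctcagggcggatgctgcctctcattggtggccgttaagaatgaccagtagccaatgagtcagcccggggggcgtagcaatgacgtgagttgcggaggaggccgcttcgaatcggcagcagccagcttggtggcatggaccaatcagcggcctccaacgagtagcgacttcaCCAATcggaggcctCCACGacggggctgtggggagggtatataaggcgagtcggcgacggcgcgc
Hsp90b1, chr10:86705445-86705694, minus strand: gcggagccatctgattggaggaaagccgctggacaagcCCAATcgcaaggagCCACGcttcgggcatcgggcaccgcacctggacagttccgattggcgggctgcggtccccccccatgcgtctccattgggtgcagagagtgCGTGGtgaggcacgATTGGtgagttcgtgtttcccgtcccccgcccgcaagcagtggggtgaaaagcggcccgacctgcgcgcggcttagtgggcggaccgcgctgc
Calr, chr8:84846932-84847181, minus strand: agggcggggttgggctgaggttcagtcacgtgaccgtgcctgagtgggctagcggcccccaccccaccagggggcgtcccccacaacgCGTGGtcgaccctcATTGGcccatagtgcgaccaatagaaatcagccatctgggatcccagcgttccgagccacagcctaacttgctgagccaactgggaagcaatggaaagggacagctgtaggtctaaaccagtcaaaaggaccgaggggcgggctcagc
P4hb, chr11:120573254-120573503, minus strand: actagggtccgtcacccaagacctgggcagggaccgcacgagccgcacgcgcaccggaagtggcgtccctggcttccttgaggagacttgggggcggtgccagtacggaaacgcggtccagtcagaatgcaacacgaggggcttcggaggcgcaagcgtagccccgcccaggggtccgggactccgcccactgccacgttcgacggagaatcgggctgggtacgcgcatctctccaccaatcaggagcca

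**Figure D1:**
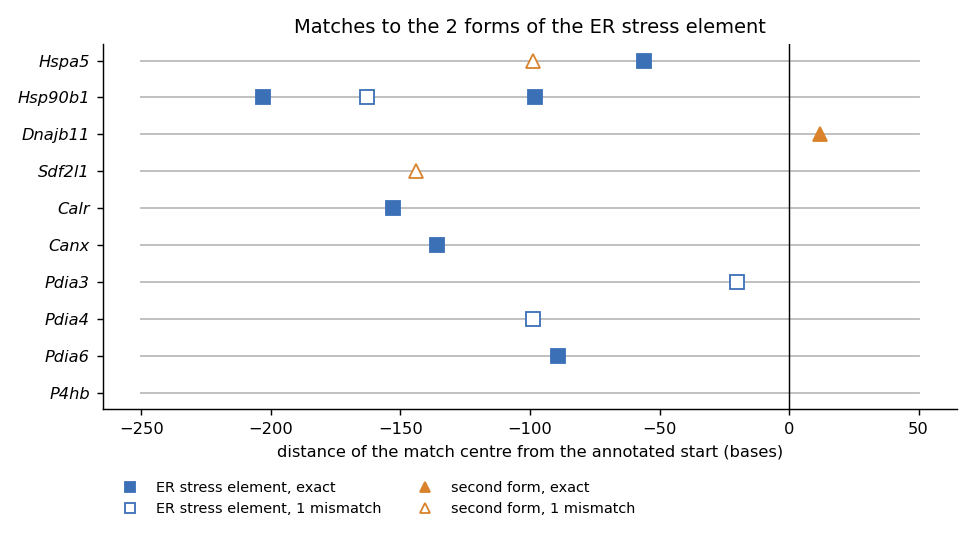
Position of each match to the ER stress element in the promoters of the 10 genes, as the distance in bases of the match centre from the annotated RefSeq start (x axis, start at 0, one row per gene). Filled symbols are exact matches and open symbols hold 1 mismatch; squares are the first form and triangles the second, and the P4hb row is empty.

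The libraries held 10989843 to 12752604 estimated counts, and 3 counts correspond to at most 0.273 counts per 1000000 (CPM). Rod markers, the defining genes of the most abundant retinal cell, summed to 52614 to 61892 CPM, and RPE markers to 7.82 to 25 CPM. Some libraries stood apart from their group. In AAV2-GFP replicate 1 the 7 T lymphocyte markers summed to 13.3 CPM, against 0.18 to 0.684 in the other AAV2-GFP retinas, the 8 B and plasma cell markers to 211 CPM against 10.8 to 13, and the 9 microglia and macrophage markers to 192 CPM against 24.3 to 42.8. The 10 interferon response genes summed to 454 CPM in AAV2-GFP replicate 1 and 614 CPM in replicate 4, against 83 to 153 in the other 3 and 85.4 to 109 with AAV206-GFP. Lens markers were at 15.2 to 36.7 CPM with AAV2-GFP and 1.7 to 17.4 with AAV206-GFP, and erythrocyte markers at 67.8 to 85.8 and 101 to 319. In AAV206-GFP replicate 4, 4 Y-linked genes summed to 114 CPM, against 226 to 246 in the other 9 libraries. Whether that library was a pool of mice was not tested. Because of the immune and interferon markers, results are also given without AAV2-GFP replicates 1 and 4, an alternative chosen after the data were seen. The part of these markers in the results was not tested otherwise.

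Of the 10 folding genes, 9 were lower with AAV206-GFP than with AAV2-GFP and P4hb did not pass the threshold (edgeR quasi-likelihood test, Benjamini-Hochberg adjusted p under 0.05 over all genes tested). Over all tested genes 11.2% passed the threshold, 5.3% lower and 5.95% higher with AAV206-GFP. The estimated log2 fold change was negative for all 10 genes, with a median of -0.70, against -0.009486 over all genes tested. Every AAV206-GFP retina lay below every AAV2-GFP retina in 9 genes, a pattern that 4.36% of all tested genes showed in this direction. Sdf2l1, Hspa5 and Calr were at least 2-fold lower, as were 0.669% of all tested genes. Apart from Sdf2l1 (percentile 49.1), the 10 genes lay at percentiles 80 to 96.5 of level per kilobase of exon among tested genes. The shares over all tested genes were not matched for level. Summed over the 10 genes, the level was 1922 ± 31.8 CPM in the AAV2-GFP retinas and 1207 ± 49.5 CPM in the AAV206-GFP retinas (SD, n = 5 each), 62.8% of the AAV2-GFP level, and the ranges of 1889 to 1969 and 1147 to 1260 did not overlap. These are levels in RNA of the whole retina, in which fewer cells of a type and less RNA per cell cannot be told apart.

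**Figure D2:**
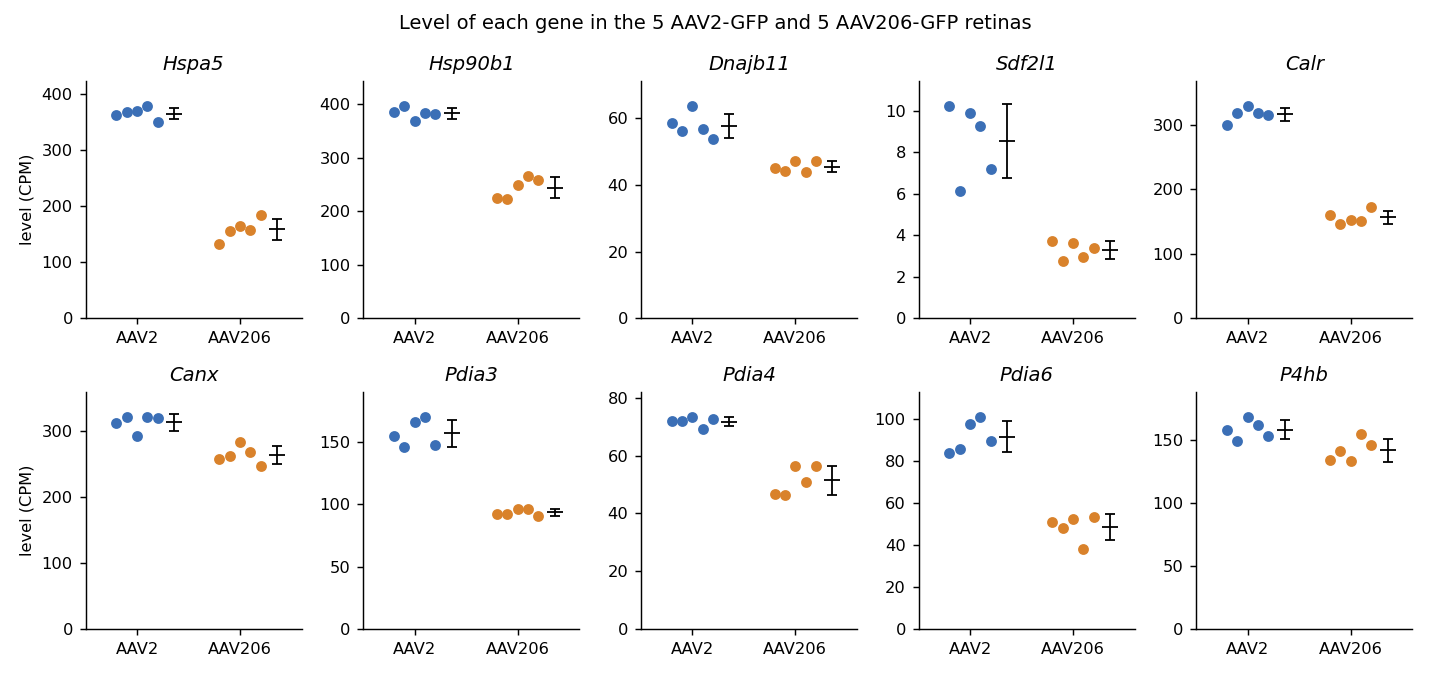
Level of each of the 10 genes in CPM (y axis, from 0) in the 5 AAV2-GFP retinas (blue) and the 5 AAV206-GFP retinas (orange), 1 panel per gene. Points are retinas in replicate order and bars are mean ± SD; the groups are apart in 9 panels and overlap in P4hb.

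Hspa5 encodes BiP, the HSP70 chaperone of the ER lumen, which also holds the UPR sensors inactive. Its gene lies at chr2:34771970-34777547. With AAV2-GFP, Hspa5 stood at 362, 368, 369, 378 and 349.6 CPM in replicates 1 to 5. With AAV206-GFP it stood at 132, 155, 164, 157 and 185 CPM. The AAV2-GFP retinas were tightly grouped, and the highest AAV206-GFP retina, replicate 5, was still at 52.9% of the lowest AAV2-GFP retina. The mean was 365 ± 10.3 with AAV2-GFP against 159 ± 19.1 CPM with AAV206-GFP (SD, n = 5). This log2 fold change of -1.20 (SE 0.08, edgeR adjusted p = 9.89e-08) ranked 5 among all tested genes by p-value. AAV2-GFP replicate 1, with its immune markers, was at 362 CPM, inside the range of its group. AAV2-GFP replicate 4, with the highest sum of interferon response genes, had the highest Hspa5 level, 378 CPM. Whether these markers bear on the Hspa5 level was not tested.

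Hsp90b1 encodes GRP94, the HSP90 chaperone of the ER, with clients that include integrins and Toll-like receptors (chr10:86690209-86705509). Its levels were 386, 396, 368, 384 and 381 CPM with AAV2-GFP. They were 225, 223, 250.0, 266 and 258 CPM with AAV206-GFP. All 5 AAV206-GFP retinas were low, the lowest being replicates 1 and 2, and the groups did not overlap. The log2 fold change was -0.65 (SE 0.06, edgeR adjusted p = 1.31e-05), on means of 383 ± 10.3 and 244 ± 19.2 CPM (SD, n = 5). Its deposited counts carried decimals in all 10 libraries, so some of its reads were shared with another gene and the level is uncertain to that extent. Its exons overlap Gm15344 on the same strand, which had a mean estimated count of 5.6.

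Dnajb11 and Sdf2l1 work together in the ER: Dnajb11 (ERdj3, chr16:22857845-22879634) delivers unfolded proteins to BiP, and Sdf2l1 (chr16:17130138-17132383) binds Dnajb11 and keeps clients soluble. Dnajb11 stood at 58.6, 56.2, 63.6, 56.8 and 53.7 CPM with AAV2-GFP. In the AAV206-GFP retinas it stood at 45.1, 44.1, 47.3, 43.8 and 47.2 CPM. The AAV206-GFP values were close together and all lay below the lowest AAV2-GFP value. The difference was -0.34 on the log2 scale (SE 0.06, edgeR adjusted p = 0.00281), with means of 57.8 ± 3.67 and 45.5 ± 1.69 CPM (SD, n = 5).

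Sdf2l1 had the lowest level of the 10 per kilobase of exon, 7.7 CPM with AAV2-GFP and 2.96 with AAV206-GFP, and 30 to 128 estimated counts per library. It stood at 10.2, 6.11, 9.9, 9.28 and 7.18 CPM in the AAV2-GFP retinas and at 3.7, 2.74, 3.62, 2.96 and 3.39 CPM in the AAV206-GFP retinas. Replicates 2 and 5 were the low ones of the AAV2-GFP group, yet the groups did not overlap. The estimated log2 fold change of -1.38 was the most negative of the 10 and had the widest error (SE 0.18, edgeR adjusted p = 0.00023), on means of 8.54 ± 1.8 and 3.28 ± 0.42 CPM (SD, n = 5).

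Calr and Canx encode calreticulin and calnexin, the soluble and the membrane-bound lectin that hold newly made glycoproteins until they have folded (chr8:84841850-84846934 and chr11:50293961-50325673). Calr stood at 300.0, 319, 329, 319 and 316 CPM with AAV2-GFP. With AAV206-GFP it was 160.0, 147, 152, 151 and 173 CPM in the 5 retinas. The groups were far apart, each with a spread of 10.5 CPM (SD, n = 5) around means of 316 and 157 CPM. Calr had the second smallest p-value of all tested genes (log2 fold change -1.01, SE 0.06, edgeR adjusted p = 7.53e-08).

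Canx stood at 312, 320.2, 291, 319.8 and 319 CPM with AAV2-GFP. With AAV206-GFP it was 257, 262, 283, 268 and 247 CPM. The AAV206-GFP retinas were all lower, but AAV2-GFP replicate 3 and AAV206-GFP replicate 3 nearly met. The log2 fold change was -0.25 (SE 0.06, edgeR adjusted p = 0.0113), with means of 313 ± 12.5 and 263 ± 13.3 CPM (SD, n = 5). Without AAV2-GFP replicates 1 and 4 the log2 fold change was -0.24 (SE 0.07, edgeR adjusted p = 0.0629). The estimate hardly changed, but the call was lost in this fit on fewer libraries. Over all genes 985 passed in the same fit, against 1747 with all libraries. Over the other 21 alternatives the adjusted p of Canx was under 0.05.

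Of the 4 disulfide isomerases, 3 were lower with AAV206-GFP. Pdia3 (ERp57, chr2:121413775-121438687) is the isomerase that calreticulin and calnexin recruit to glycoproteins. Its levels were 155, 146, 166, 170.0 and 148 CPM in the AAV2-GFP retinas and 91.9, 92.1, 96.4, 96.1 and 91 CPM in the AAV206-GFP retinas. The AAV206-GFP retinas were nearly equal to each other and none came near the AAV2-GFP range. Means were 157 ± 10.5 and 93.5 ± 2.55 CPM (SD, n = 5; log2 fold change -0.75, SE 0.06, edgeR adjusted p = 1.57e-06). Of its exons, 18 bases overlap Catsper2 on the opposite strand, a gene with a mean estimated count of 51.3, and no source used here says whether counting used strand.

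Pdia6 (P5, chr12:17266545-17284770) is an isomerase that associates with BiP. It stood at 84.1, 85.7, 97.5, 101 and 89.5 CPM with AAV2-GFP. With AAV206-GFP the levels were 51.2, 48.3, 52.2, 37.9 and 53.4 CPM. Replicate 4 was the lowest of the AAV206-GFP retinas and the others lay close together, all far below the AAV2-GFP range. The log2 fold change was -0.91 (SE 0.09, edgeR adjusted p = 1.61e-05), on means of 91.6 ± 7.52 and 48.6 ± 6.29 CPM (SD, n = 5).

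Pdia4 (ERp72, chr6:47796141-47813430), an isomerase with several thioredoxin-like domains, stood at 72, 71.9, 73.3, 69.1 and 72.5 CPM with AAV2-GFP. With AAV206-GFP it was 46.7, 46.3, 56.5, 50.9 and 56.5 CPM. The AAV2-GFP retinas varied little, those with AAV206-GFP varied more, and the groups were apart. The log2 fold change was -0.48 (SE 0.07, edgeR adjusted p = 0.000404), on means of 71.8 ± 1.58 and 51.4 ± 4.99 CPM (SD, n = 5).

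P4hb (chr11:120560298-120573253) encodes PDI itself, the founding isomerase of the family and also a subunit of collagen prolyl hydroxylase. P4hb stood at 158, 149, 168, 162 and 153 CPM in the AAV2-GFP retinas and at 134, 141, 133, 155 and 146 CPM in the AAV206-GFP retinas. AAV206-GFP replicate 4 lay within the AAV2-GFP range, so the groups overlapped. The means were 158 ± 7.41 and 142 ± 8.93 CPM (SD, n = 5), and the log2 fold change of -0.16 (SE 0.06) did not pass the threshold (edgeR adjusted p = 0.107). Over 22 alternative analyses its adjusted p ranged from 0.053 to 0.259.

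**Figure D3:**
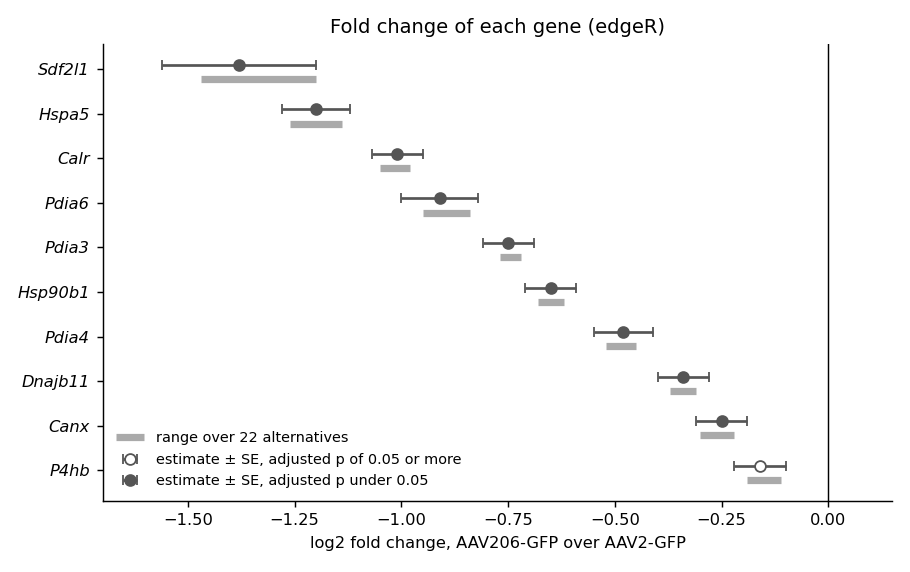
Log2 fold change of each of the 10 genes, AAV206-GFP over AAV2-GFP (x axis), from edgeR; points are estimates and bars ± SE. Grey bars below the points span the estimates over 22 alternatives, which all stay below 0 and keep P4hb (open point, -0.19 to -0.11) nearest to 0.

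The order of the genes by level was not the same in both groups. Exon length was the union of all annotated exons of a gene, so the order within a group depends on the annotation. Per kilobase of exon, the AAV2-GFP level was highest for Calr at 110 CPM, followed by Hsp90b1 at 95, Hspa5 at 86.4, Canx at 66.6 and P4hb at 55.2 CPM. With AAV206-GFP the level per kilobase was highest for Hsp90b1 at 60.6 CPM, then Canx at 56.1, Calr at 54.4, P4hb at 49.6 and Hspa5 at 37.5 CPM. The ratio of Hspa5 to P4hb, a pair chosen after their values were seen, was 2.2 to 2.47 in the AAV2-GFP retinas and 0.982 to 1.27 in the AAV206-GFP retinas. This pair is a description, with no test.

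**Figure D4:**
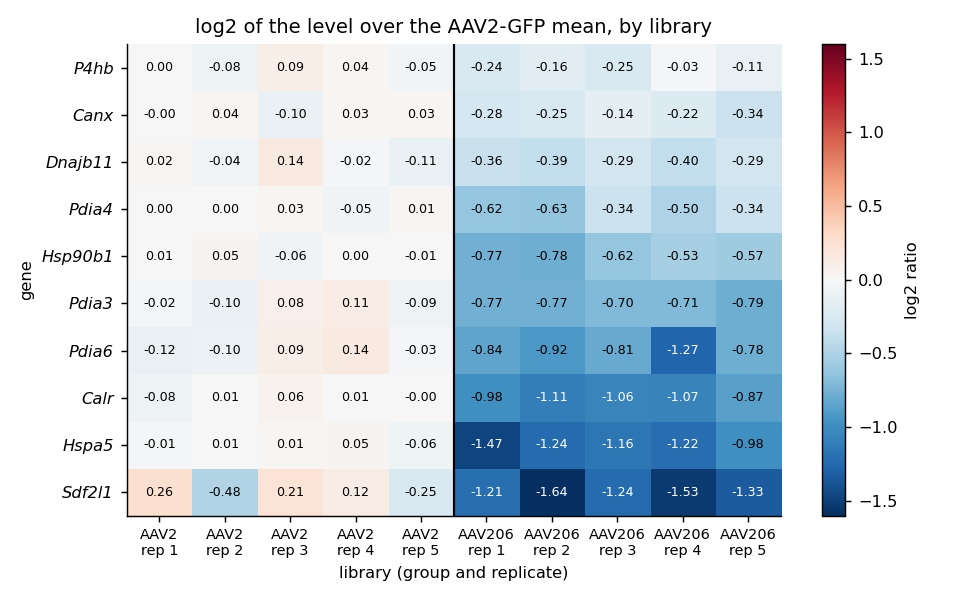
Log2 ratio of each gene's level in each library to the gene's AAV2-GFP mean (colour and printed value; rows are the 10 genes, columns the 10 libraries). The 5 AAV206-GFP columns are below 0 for every gene, from -0.03 for P4hb in replicate 4 to -1.64 for Sdf2l1 in replicate 2.

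Within groups the genes moved together only in part. After each group's mean was subtracted, the 45 pairs of genes had a median Pearson r of 0.16 over the 10 libraries, and 32 pairs were above 0. The highest correlations were between Hspa5 and Pdia4 (r = 0.73), Dnajb11 and Sdf2l1 (0.67) and Hsp90b1 and Pdia4 (0.67), and the lowest was between Calr and Canx (-0.63). These values are a description over libraries that share their depth and scaling. Among 7827 genes compared, those closest within groups to the mean of the 10 included Atf5 (r = 0.96), Eif2b4 (0.94), Ndufaf3 (0.94) and Tmub1 (0.93). Of these 4 only Atf5, a transcription factor of stress responses, passed the threshold between the groups (19.6 and 14.6 CPM, log2 fold change -0.43, edgeR adjusted p = 0.0362). These genes were picked for the highest r among 7827 over only 10 libraries, and high values can arise from such a choice alone. The mean of the 10 genes varied only from -0.06 to 0.07 on the log2 scale around its group means. Shared regulation was not tested.

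The rest of ER protein folding was examined in 6 lists. Of 69 further genes, 64 were tested, 9 were lower with AAV206-GFP (14.1%, against 5.3% of all genes), 3 were higher and 52 did not pass (edgeR adjusted p under 0.05), with a median log2 fold change of -0.06. The largest of these differences was among the other partners of BiP. Of 11 tested, 3 were lower and 1 was higher (36.4% passed, against 11.2% of all genes). Manf, a secreted factor that binds BiP, was at 46.1 ± 5.16 CPM in the AAV2-GFP retinas and 21.9 ± 4.48 CPM in the AAV206-GFP retinas (SD, n = 5; log2 fold change -1.07, edgeR adjusted p = 6.7e-05). Hyou1, the exchange factor that releases nucleotide from BiP, was at 119 ± 7.85 and 80.2 ± 6.46 CPM (log2 fold change -0.57, edgeR adjusted p = 8.19e-05). Dnajc3, a co-chaperone that binds unfolded clients, was at 67.6 ± 4.42 and 53.1 ± 2.9 CPM (log2 fold change -0.35, edgeR adjusted p = 0.00332). In contrast Dnajc10, a co-chaperone that reduces disulfide bonds, was higher, at 68.3 ± 4 and 86.3 ± 5.06 CPM (log2 fold change 0.34, edgeR adjusted p = 0.00315). Sec63, the highest in CPM of this list, was at 111 and 114 CPM (edgeR adjusted p = 0.737).

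Of the remaining PDI family, 11 of 15 genes were tested and 2 passed (18.2%, against 11.2% of all genes), each of them lower. Erp29, a PDI relative without a redox-active site, had means of 45.8 ± 4.9 and 35.2 ± 2.97 CPM (SD, n = 5; log2 fold change -0.38, edgeR adjusted p = 0.00941), with decimals in all 10 libraries that mark shared reads. Pdia5 had means of 27 ± 3.48 and 20.9 ± 1.06 CPM (log2 fold change -0.37, edgeR adjusted p = 0.0199). Neither passed without AAV2-GFP replicates 1 and 4. Tmx4, a membrane-bound member with the highest CPM of the list, was at 158 ± 5.19 and 173 ± 20.9 CPM (edgeR adjusted p = 0.294).

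The enzymes that act on sugar chains in the calnexin cycle were mixed, with 3 of 12 lower and 1 higher (33.3% passed, against 11.2% of all genes). Prkcsh, the beta subunit of glucosidase II, had a log2 fold change of -0.31 (76 and 61.2 CPM, edgeR adjusted p = 0.0189). Edem1, which directs misfolded glycoproteins to degradation, had one of -0.37 (37.7 and 29.2 CPM, edgeR adjusted p = 0.029), and Lman2, a cargo lectin, one of -0.21 (97.3 and 84.2 CPM, edgeR adjusted p = 0.0479). Uggt2, a relative of the glucosyltransferase that returns unfolded glycoproteins to the lectins, was higher, at 26.4 and 37.3 CPM (log2 fold change 0.50, edgeR adjusted p = 0.00135). Its counts carried decimals in 4 libraries. Ganab, the catalytic subunit of glucosidase II and the highest in CPM of the list, was at 178 and 198 CPM (edgeR adjusted p = 0.0918). The groups overlapped in Prkcsh and in Lman2. The list's count of 4 fell to 2 without any 1 of AAV2-GFP replicates 1, 4 or 5 or AAV206-GFP replicates 1, 2 or 3, and to 1 without AAV206-GFP replicate 4. In all these fits the calls that were lost were lower ones, and 1 higher call remained.

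Oxidases and related enzymes supply disulfide bonds to the isomerases. None of the 10 genes of thiol oxidation passed in edgeR, 2 had an unadjusted p under 0.05, DESeq2 called 1 and limma-voom 0. These 2 genes, named after their values were seen, were Prdx4 and the ER oxidase gene Ero1l. Prdx4 was at 3.67 and 5.76 CPM (log2 fold change 0.64, edgeR adjusted p = 0.0572). Ero1l was at 70.6 and 80.1 CPM (log2 fold change 0.18, edgeR adjusted p = 0.0791). Selenof, a selenoprotein of the ER and the highest in CPM of the list, was at 124 and 114 CPM (edgeR adjusted p = 0.263). Among 7 prolyl isomerases of the ER, 1 passed (14.3%, against 11.2% of all genes). This was Fkbp2, which was lower, at 24.6 ± 3.57 and 15.1 ± 2.73 CPM (SD, n = 5; log2 fold change -0.70, edgeR adjusted p = 0.00312). Ppib, the highest in CPM, was at 79.4 and 78.5 CPM (edgeR adjusted p = 0.895), with decimals in all 10 libraries. Of 13 tested genes of the translocon and of retrieval to the ER, 1 passed (7.69%, against 11.2% of all genes). This gene, Ssr1, a subunit of the translocon-associated complex, was higher, at 157 ± 10.2 and 186 ± 9.73 CPM (log2 fold change 0.24, edgeR adjusted p = 0.0221). Ssr1 no longer passed without AAV2-GFP replicate 4 or 5 or AAV206-GFP replicate 4, without AAV2-GFP replicates 1 and 4 together, with the replicate number as a block, or with offsets for GC content and length.

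**Figure D5:**
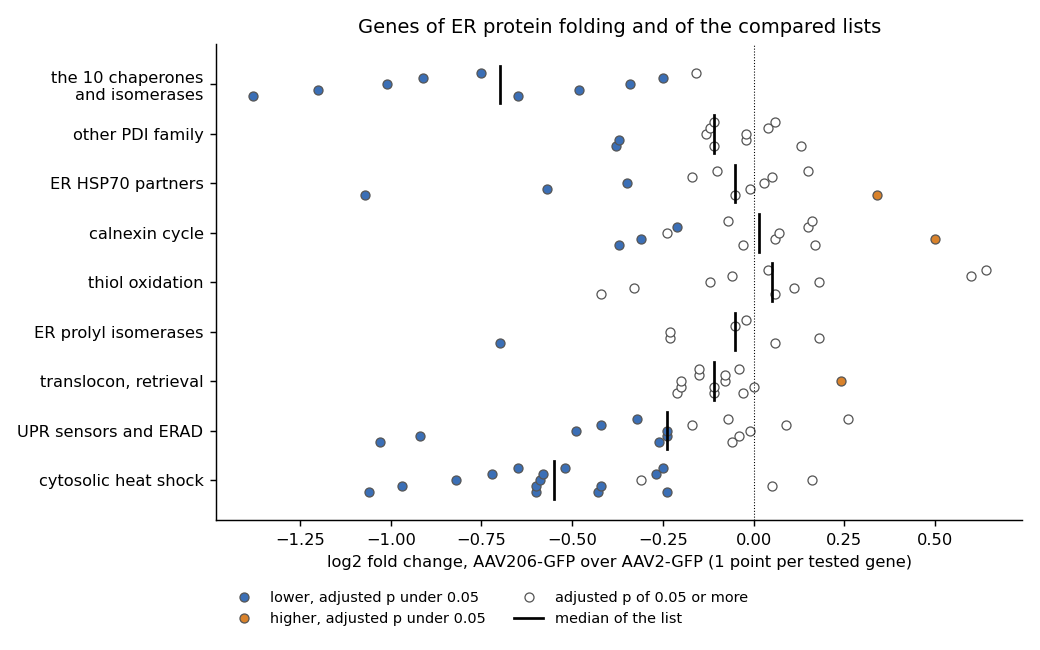
Log2 fold change (AAV206-GFP over AAV2-GFP, x axis) of every tested gene in the 10 chaperones and isomerases and in 8 further lists (rows), with a bar at each list's median. Filled points passed an edgeR adjusted p under 0.05; the median is -0.70 for the 10 genes, -0.24 for the UPR and degradation list and -0.55 for cytosolic heat shock genes.

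The UPR and ER-associated degradation genes were examined as the pathway known to control these chaperones. Of 15 tested, 8 were lower (53.3%, against 5.3% of all genes) and none higher (edgeR), with a median log2 fold change of -0.24. Xbp1, the UPR transcription factor, was at 107 ± 10.3 CPM in the AAV2-GFP retinas and 52.6 ± 2.82 CPM in the AAV206-GFP retinas (SD, n = 5; log2 fold change -1.03, edgeR adjusted p = 4.03e-07). Atf6b was at 69.3 and 49.3 CPM (log2 fold change -0.49, edgeR adjusted p = 0.00257). Syvn1, the ubiquitin ligase of ER-associated degradation, was at 79 and 63.3 CPM (-0.32, edgeR adjusted p = 0.00323), with decimals in all 10 libraries. Creld2, an ER stress target, was at 23.2 and 12.3 CPM (-0.92, edgeR adjusted p = 0.00374). Atf4, the highest in CPM of the list, was at 241 and 202 CPM (log2 fold change -0.26, edgeR adjusted p = 0.0486). The 3 sensor genes, named after their values were seen, did not pass: Ern1 was at 58.6 and 70 CPM (edgeR adjusted p = 0.0785), Atf6 at 99.3 and 106 CPM (adjusted p = 0.464) and Eif2ak3 at 50 and 47.7 CPM (adjusted p = 0.6). The count of 8 was 5 without AAV2-GFP replicate 4, AAV206-GFP replicate 2 or AAV206-GFP replicate 4, and 5 without AAV2-GFP replicates 1 and 4 together.

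Chaperones outside the ER were lower as well. Of 18 tested genes of the cytosolic heat shock response, 15 were lower with AAV206-GFP (83.3%, against 5.3% of all genes, edgeR), with a median log2 fold change of -0.55. Without AAV2-GFP replicates 1 and 4 the count was 12. Hspa8, the constitutive HSP70 of the cytosol, was at 1418 ± 67.1 CPM in the AAV2-GFP retinas and 725 ± 45.2 CPM in the AAV206-GFP retinas (SD, n = 5; log2 fold change -0.97, edgeR adjusted p = 7.53e-08), with decimals in all 10 libraries. The HSP90 co-chaperone Chordc1 was at 65.4 and 41.7 CPM (log2 fold change -0.65, edgeR adjusted p = 3.44e-05). The HSP110 gene Hsph1 was at 89.7 and 50.8 CPM (-0.82, edgeR adjusted p = 4.99e-05), and the HSP70 and HSP90 adaptor Stip1 at 144 and 95.7 CPM (-0.59, edgeR adjusted p = 6.42e-05). Hsp90aa1, the highest in CPM of the list, was at 2037 and 1716 CPM (log2 fold change -0.25, edgeR adjusted p = 0.0159), also with decimals in all 10 libraries. Whether the ER and cytosolic chaperones differed from each other in their response was not tested.

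Outside the 10 genes, 43 genes had a promoter with an exact match to either form of the element, and 22 of them were tested. Of these, 6 were lower (27.3%) and 1 was higher (edgeR adjusted p under 0.05), against 608 lower (5.45%) among the 11165 tested genes with a listed promoter. The median log2 fold change of the 22 was -0.06. Syvn1, Dnajc3, Creld2 and Herpud1, of the lists above, were 4 of the 6. The remaining 2, named after their values were seen, were Krtcap2, a subunit of the complex that attaches sugar chains in the ER (10.4 and 7.38 CPM, edgeR adjusted p = 0.0352), and Xlr3a, whose counts carried decimals in 9 libraries (3.32 and 1.3 CPM, edgeR adjusted p = 0.0254). Lrif1 was the higher one, at 40 and 65.2 CPM (edgeR adjusted p = 3.67e-05), with decimals in all 10 libraries. A match is a description of the sequence and does not show that a factor was bound there in these retinas.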

How the data were processed

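RNA of the retina was measured in 10 libraries, 5 per vector; the study's design gives 5 mice per group, and whether a library was pooled is not given in the sources used here. Library preparation used the NEBNext Ultra RNA kit, with paired reads of 150 bases, per the labels' protocols. The submitters' processing notes name STAR 2.7.10b, RSEM 1.3.1 and build mm10; the annotation and strand setting are not given in the sources used here. The deposited table held estimated counts per gene. Of all values 5.95% carried decimals, and of values above 0 15.7% did. Counts were rounded to whole numbers before testing. GENCODE release M21 named 91.4% of its identifiers (52081 of 57010), and gene spans are from that annotation. Promoter sequences are RefSeq's.

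The groups were compared (AAV206-GFP over AAV2-GFP) with edgeR 4.0.16 under R 4.3.3: filterByExpr with a minimum count of 10, TMM factors, a quasi-likelihood F test on all 10 libraries without covariates, and Benjamini-Hochberg adjustment with a threshold of 0.05. SE was taken as the size of the log2 fold change over the root of F. CPM is per 1000000 counts of the TMM-adjusted library size. The procedure was tested on simulated data. Pairs of replicates differed by more than sampling noise, so none was counted as a duplicate. The floor of 3 counts covers counting error only, whereas SD and SE also include differences between libraries.

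The members and gene lists were chosen with earlier results of these data known. Named were all 10 members; in each list the genes past the threshold, up to the 4 with the smallest p-values, and the 1 with the highest mean CPM; and the 5 genes most like the members' mean within groups, among those with a mean of at least 10 CPM and whole counts in every library. Of the genes this rule chose, 1 is not reported here. Other names were chosen after values were seen. Alternatives were other scaling, filters and tests (limma-voom from limma 3.58.1, DESeq2 1.42.0, edgeR with robust dispersions), unrounded counts, a replicate block, each library left out, and, added after the data were seen, AAV2-GFP replicates 1 and 4 left out together and offsets for GC content and length.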

Additional observations from a re-analysis of the deposited data

Results flagged for a closer look

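The Canx level of AAV2-GFP replicate 3 stood apart from its group. Canx stood at 291 CPM there, while the remaining 4 AAV2-GFP retinas ranged from 312 to 320.2 CPM. This gap was 0.725 of the whole range of the group, above the limit of 0.71 for 5 samples. Of 20 groups of 5 examined in this way, 1 is expected to pass by chance, and 1 did. Without this library the log2 fold change of Canx was -0.27 (edgeR adjusted p = 0.00601).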

How the results depend on the processing

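Across 22 alternatives for each of the 10 genes, 219 of 220 fits kept their direction and their side of the threshold and 0 reversed. The exception was Canx without AAV2-GFP replicates 1 and 4 (adjusted p = 0.0629), which left 8 members past the threshold. Over all genes, 1747 passed in the edgeR analysis; 985 passed without AAV2-GFP replicates 1 and 4, and 991 to 1912 with 1 library left out, the fewest without AAV2-GFP replicate 4 (AAV206-GFP replicate 4: 1056; AAV206-GFP replicate 2: 1074). With each library left out, the calnexin cycle count ranged from 1 to 4, the translocon count from 0 to 1 and the UPR and degradation count from 5 to 9. Without AAV2-GFP replicates 1 and 4 these counts were 2, 0 and 5, that of the other PDI family was 0 and that of cytosolic heat shock was 12. With DESeq2 the thiol oxidation count was 1 and the translocon count 2; with offsets for GC content and length the thiol oxidation count was 1. The translocon count with those offsets was still 1, but the gene that passed was lower. The cause of these changes was not tested. The share of higher calls among all genes, 52.9%, was 57.2% with upper-quartile factors and ranged from 46.7% without the filter on low counts, where lower calls were the majority, to 57.9% without AAV206-GFP replicate 4.

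With the replicate number as a replicate block, 1085 genes passed over all genes, 9 members still passed (Canx adjusted p = 0.048), and the calnexin cycle, translocon and UPR counts were 2, 0 and 5. The labels state no pairing of the samples by number. Deviations of libraries with the same number from their group means correlated at -0.16 to 0.14 over 10340 genes. Of 5 AAV2-GFP libraries, 0 correlated best with their own number. No strong effect shared by number was seen, but with 5 libraries per group these values cannot exclude a pairing. At this depth Sdf2l1, with 30 to 128 counts, is the least precisely measured member.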
